A study of Homo sapiens with 4 samples.

Results

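The enzymes of the hexosamine pathway and of O-GlcNAc cycling were examined in human hepatocellular carcinoma (HCC) cells kept in low or high glucose. The 8 genes were chosen by name: GFPT1, GFPT2, GNPNAT1, PGM3, UAP1, OGT, OGA and NAGK. All 8 were found among the 59652 genes of the count table.

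The hexosamine pathway draws a fructose phosphate from glycolysis and, with glutamine, acetyl-CoA and UTP, makes UDP-GlcNAc. This sugar nucleotide is the donor for the glycans of secreted and membrane proteins and for O-GlcNAc, a single sugar that OGT places on nuclear and cytoplasmic proteins and OGA takes off again. Because the pathway starts from glucose, glutamine and energy metabolites, O-GlcNAc is widely studied as a nutrient-linked protein mark in liver and other tissues.

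RNA-seq was performed on Huh7 and PLC cells, 2 HCC cell lines labelled as wild type. Both were grown in DMEM without glucose, with serum and antibiotics, to which 5 mM (low glucose) or 25 mM (high glucose) glucose was added for 48 h. Total RNA was depleted of rRNA and made into directional libraries, with 1 library for each line and glucose concentration. There were therefore no replicates, and intervals given here cover counting error only, so a difference between the libraries of one line can also hold the spread between cultures.

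The libraries held 16049686 to 30279716 reads counted in genes, the fewest in PLC cells at 25 mM and the most in PLC cells at 5 mM. The liver genes ALB, AFP, SERPINA1 and HNF4A were expressed in both lines, while in PLC cells TTR had 4 and 0 reads and APOA1 0.783 and 2.96 FPKM at 5 and 25 mM. ALB was at 2017 and 2039 FPKM in Huh7 cells but at 52.4 and 72.3 FPKM in PLC cells. SERPINA1 was at 235 and 261 against 22.1 and 51.8 FPKM, and AFP at 1256 and 1434 against 306 and 1011 FPKM. HNF4A was not lower in PLC cells, at 29.0 and 31.1 against 35.0 and 38.5 FPKM. Summed over the marker lists, fibroblast genes (COL1A1, COL1A2, DCN) reached at most 0.442 FPKM and leukocyte genes (PTPRC, CD68) at most 0.0576 FPKM in any library. The endothelial gene PECAM1 was at 2.37 and 2.55 FPKM in Huh7 cells and at 0.115 and 0.290 FPKM in PLC cells, and VWF had 0 to 2 reads. FPKM is the count scaled to the gene's length and to the reads of the library. The length is that of all exons annotated for the gene, so the order of different genes depends on it. The counting intervals do not cover this.

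OGT and OGA write and erase O-GlcNAc, and the ratio of their levels was lower at 25 mM in both lines. The 250 bases upstream of their RefSeq start sites (GRCh38.p14) are shown for this reason, 5′ to 3′ on the strand of the gene, with each CpG in capitals. The OGT stretch lies at chrX:71532854-71533103 on the plus strand and the OGA stretch at chr10:101818445-101818694 on the minus strand. The gene span that the count table gives for OGA includes the bases of this stretch nearest to the start site.
OGT: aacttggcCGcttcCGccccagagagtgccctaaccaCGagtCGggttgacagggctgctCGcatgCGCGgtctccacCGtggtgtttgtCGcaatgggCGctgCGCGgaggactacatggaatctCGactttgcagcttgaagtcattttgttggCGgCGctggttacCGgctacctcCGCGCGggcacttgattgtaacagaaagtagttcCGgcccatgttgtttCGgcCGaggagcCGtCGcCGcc
OGA: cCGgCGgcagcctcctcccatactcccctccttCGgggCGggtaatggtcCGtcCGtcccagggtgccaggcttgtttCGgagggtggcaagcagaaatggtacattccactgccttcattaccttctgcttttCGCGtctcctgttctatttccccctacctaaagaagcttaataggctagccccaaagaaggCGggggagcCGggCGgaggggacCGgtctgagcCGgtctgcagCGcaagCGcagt
Both stretches are 60.8% G and C, and they hold 25 CpG in OGT and 16 in OGA. RefSeq promoter windows, with 250 bases before and 50 after the start, were found for all 8 genes, 12 windows in all. None of the 12 held, on either strand, the response core of C/EBP and ATF factors (TGATGNAA), the XBP1 site (TGACGTGG) or the E-box (CACGTG), which occurred in 3.62%, 0.729% and 7.26% of 35116 promoters searched. None of these motifs contains another, and their absence says only that these letters are not in these windows.

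GFPT1 and GFPT2 make the glucosamine phosphate at the entry of the pathway, the step held to limit its flow. GFPT1 (hg38, chromosome 2, 69319780 to 69387250, minus strand) was at 27.5 and 30.8 FPKM in Huh7 cells at 5 and 25 mM, and at 56.8 and 33.7 FPKM in PLC cells. It was the highest of the 8 genes in both Huh7 libraries. The ratio of high to low glucose was 1.12 (95% interval 1.08 to 1.16) in Huh7 and 0.594 (0.574 to 0.613) in PLC cells, so the 2 lines lay on opposite sides of 1. In bulk RNA, fewer cells that express a gene and less of its RNA per cell cannot be told apart.

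GFPT2 (chromosome 5, 180300698 to 180353336, minus strand), the second enzyme of this step, was close to absent. At 5 and 25 mM it had 0 and 6 reads in the Huh7 libraries and 41 and 32 reads in those of PLC cells. In FPKM this was 0, 0.0422, 0.287 and 0.422, never the 0.5 FPKM that the study required of lncRNAs. The 0 reads allow up to 3 reads at this depth, an FPKM of 0.0297. In Huh7 cells the counting interval of the ratio started at 0.837 and had no upper end, and in PLC cells the ratio was 1.35 with an interval from 0.898 to 2.40. A glucose difference of GFPT2 was not detectable at this depth, and GFPT1 had 4785 to 15217 reads in the libraries in which GFPT2 had 0 to 41.

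GNPNAT1 (chromosome 14, 52775193 to 52791668, minus strand), which acetylates the glucosamine phosphate, was at 15.1 and 15.4 FPKM in Huh7 cells and at 27.5 and 37.3 FPKM in PLC cells. Its ratio of 1.02 (0.945 to 1.09) in Huh7 cells could not be told from 1 by counting error, and in PLC cells it was 1.35 (1.28 to 1.43). By FPKM GNPNAT1 was the highest of the 8 genes in PLC cells at 25 mM, though OGT had more reads there (4886 against 2398).

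PGM3 (chromosome 6, 83161150 to 83193936, minus strand), the mutase that moves the phosphate of GlcNAc, was at 12.8 and 17.4 FPKM in Huh7 cells and at 34.0 and 30.6 FPKM in PLC cells. The ratios were 1.35 (1.29 to 1.43) and 0.902 (0.867 to 0.938), on opposite sides of 1. Over other scalings, added values and a correction for GC content and length, the PLC ratio ran from 0.823 to 0.984. By the exon positions in the count table, exons of PGM3 share 1087 bases with exons of DOP1A on the other strand. DOP1A had 638 to 944 reads against 2049 to 7688 of PGM3. The sources used here do not state whether reads were counted by strand, so some reads of the pair could be exchanged.

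UAP1 (chromosome 1, 162561506 to 162599842, plus strand), which joins GlcNAc phosphate to UTP and so finishes UDP-GlcNAc, had nearly the same levels in both lines. It was at 14.5 and 17.1 FPKM in Huh7 cells and at 14.3 and 16.8 FPKM in PLC cells. The ratios were 1.18 (1.09 to 1.27) and 1.17 (1.08 to 1.28), and the ratio between these ratios was 1.002 (0.896 to 1.12). In neither line did the ratio reach 1.5.

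OGT (chromosome X, 71533104 to 71575892, plus strand) transfers GlcNAc to proteins. It was at 19.1 and 15.4 FPKM in Huh7 cells and at 82.7 and 31.1 FPKM in PLC cells, from 3991, 4540, 24502 and 4886 reads. OGT was lower at 25 mM in both lines and stood far above its other libraries in PLC cells at 5 mM, where it was the highest of the 8 genes. The ratios were 0.809 (0.774 to 0.844) in Huh7 and 0.377 (0.365 to 0.388) in PLC cells.

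OGA (chromosome 10, 101784443 to 101818465, minus strand) removes the sugar. It was at 10.5 and 19.8 FPKM in Huh7 cells and at 23.5 and 18.7 FPKM in PLC cells, from 1619, 4323, 5165 and 2178 reads. The low value of OGA was that of Huh7 cells at 5 mM, and the other 3 libraries were near each other. The ratio was 1.89 (1.79 to 2.01) in Huh7 and 0.796 (0.756 to 0.837) in PLC cells, on opposite sides of 1.

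NAGK (chromosome 2, 71064344 to 71079808, plus strand) phosphorylates GlcNAc that is freed when glycans are broken down and so returns it to the pathway. It was at 4.81 and 3.20 FPKM in Huh7 cells and at 6.96 and 4.89 FPKM in PLC cells, lower at 25 mM in both. The ratios of 0.672 (0.605 to 0.731) and 0.706 (0.643 to 0.766) differed little, with a ratio between them of 0.952 (0.835 to 1.08).

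**Figure D1:**
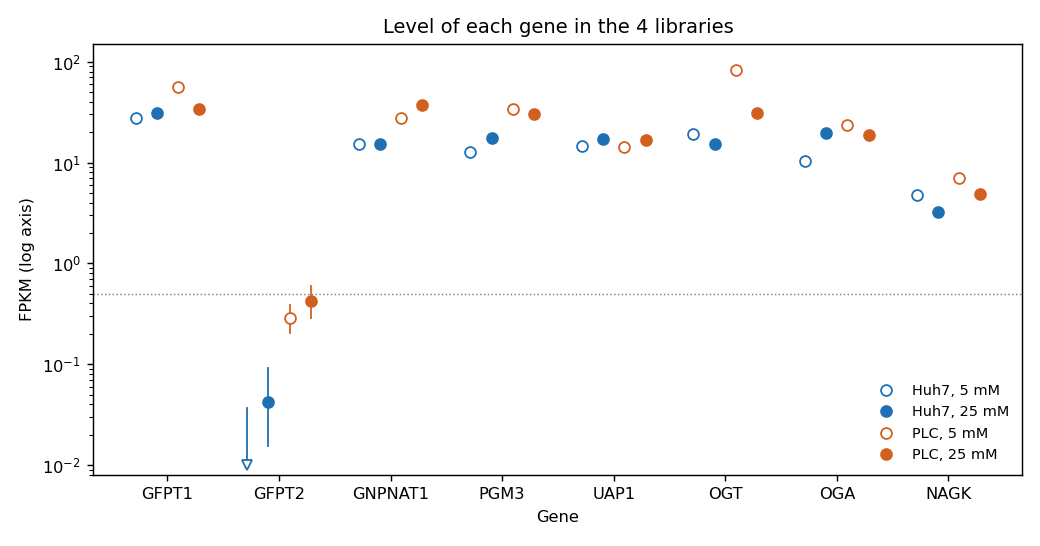
FPKM on a log axis of each of the 8 genes in the 4 libraries, with exact 95% counting intervals where they are wider than the point and the 0.5 FPKM limit as a dotted line. The arrow stands for the 0 reads of GFPT2 in Huh7 cells at 5 mM, and OGT in PLC cells at 5 mM is the highest point at 82.7 FPKM.

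The order of the levels differed between libraries. In Huh7 cells at 5 mM it was GFPT1, OGT, GNPNAT1, UAP1, PGM3, OGA, NAGK and GFPT2, and the counting intervals of GNPNAT1 and UAP1 overlapped. At 25 mM in Huh7 cells OGA moved to the second place behind GFPT1, followed by PGM3, UAP1, OGT and GNPNAT1, with overlap of PGM3 and UAP1 and of OGT and GNPNAT1. In PLC cells at 5 mM the order was OGT, GFPT1, PGM3, GNPNAT1, OGA and UAP1, with no overlap between neighbours. At 25 mM it was GNPNAT1, GFPT1, OGT, PGM3, OGA and UAP1, with overlap of OGT and PGM3 alone. NAGK and GFPT2 were the lowest in all 4 libraries. This order is by FPKM and depends on the gene lengths used. By reads, NAGK was above UAP1 in PLC cells at 5 mM (1876 against 1486).

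To see which of the 8 genes passed the thresholds of the study, an FPKM above 0.5 was required together with a ratio above 1.5 or below 0.67, with 0.5 FPKM in at least 1 library of the line. In Huh7 cells OGA alone passed, 1 of the 7 genes over the FPKM limit, and it was higher at 25 mM. Of all genes over the limit 27.8% passed in Huh7 cells, and of the protein-coding genes 11.6%. In PLC cells GFPT1 and OGT passed, 2 of 7, both lower at 25 mM. There 43.3% of all genes and 30.3% of protein-coding genes passed, so the share of the 8 genes was close to that of protein-coding genes in both lines. NAGK lay just outside the lower threshold in Huh7 cells at 0.672, and it passed there under 4 other settings. In PLC cells it passed as well with TMM scaling and with DESeq2 size factors.

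The median log2 ratio of the 8 genes was 0.20 in Huh7 and -0.24 in PLC cells, beside 0.037 and 0.11 over all genes and 0.042 and 0.071 over protein-coding genes. In PLC cells TMM scaling moves every log2 ratio by -0.12 and DESeq2 size factors by -0.13, and in Huh7 cells by -0.04 and -0.02. Under these scalings each ratio kept its side of 1 except that of GNPNAT1 in Huh7 cells, which ran from 0.988 to 1.02 over the alternatives. The liver genes AFP, SERPINA1 and APOA1 were 3.30, 2.34 and 3.46 times as high at 25 mM as at 5 mM in PLC cells and 1.14, 1.11 and 1.52 times as high in Huh7 cells. In PLC cells the value of APOA1 came from 26 and 52 reads. The other liver genes listed differed less there, ALB at 1.38 and HNF4A at 1.10, and TTR had 4 and 0 reads. The part of the liver genes in the values of the 8 genes was not tested.

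**Figure D2:**
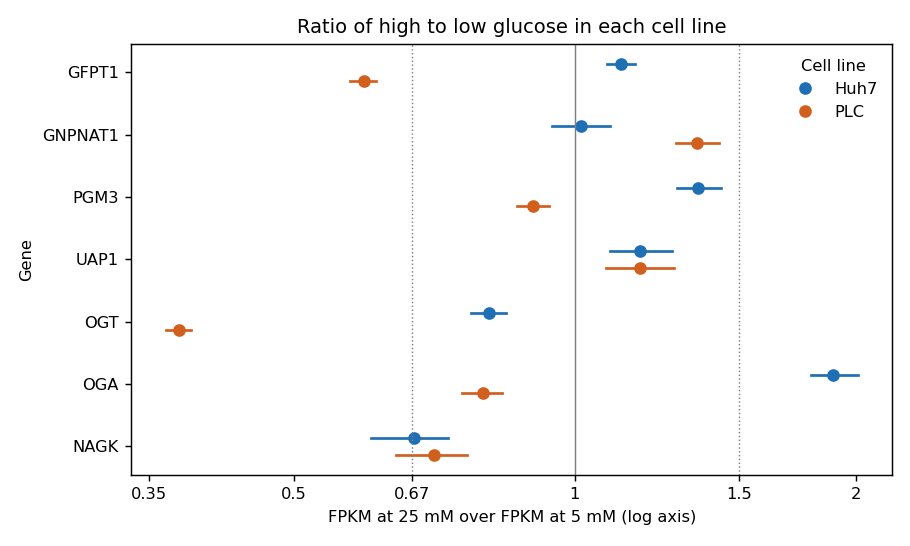
Ratio of FPKM at 25 mM to FPKM at 5 mM on a log axis, with exact 95% counting intervals, for the 7 genes over 0.5 FPKM in each line; dotted lines mark 0.67 and 1.5. OGA at 1.89 in Huh7 cells and GFPT1 at 0.594 and OGT at 0.377 in PLC cells lie outside the dotted lines.

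To see whether any of the 8 genes changed with glucose alike in Huh7 and PLC cells, edgeR's quasi-likelihood test was fitted to the counts of 23217 genes, and the line was kept as a block. With the line as a block, the p-values rest on how unlike the glucose change was in the 2 cell lines. The quasi-likelihood fit draws this spread of each gene towards that of all genes, so a p-value rests only in part on its own gene. The 2 lines are not replicate cultures of one line. None of the 8 genes was called at a Benjamini-Hochberg adjusted p under 0.05, where 0.379% of all genes were called. Unadjusted, OGT and NAGK had p under 0.05, as had 1975 of all 23217 genes, and DESeq2 and limma-voom called none either (DESeq2 gave no adjusted p for GFPT2). OGT had a log2 fold change of -0.94 (SE 0.26) with an edgeR adjusted p of 0.178, and NAGK -0.63 (SE 0.24) with an edgeR adjusted p of 0.430. OGT was called with an edgeR adjusted p of 0.00472 when no filter on low counts was used, and over all alternatives its adjusted p ran from 0.00472 to 0.99996. For the other 6 genes the edgeR adjusted p was 0.783 or higher.

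How far the lines differed in their response has no test, since each line has 1 library per concentration, and only the counting interval of the ratio between the Huh7 ratio and the PLC ratio could be given. It was 2.37 (2.21 to 2.57) for OGA, 2.15 (2.04 to 2.26) for OGT, 1.89 (1.80 to 1.98) for GFPT1 and 1.501 (1.41 to 1.61) for PGM3. For GNPNAT1 it was 0.751 (0.687 to 0.819), the only one of these below 1 with an interval that leaves out 1. For OGT both lines were lower at 25 mM and differed in size, while for OGA, GFPT1 and PGM3 the lines lay on opposite sides of 1.

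The balance of the enzyme that adds O-GlcNAc to the one that removes it was then taken within each library, where the scale of the library cancels. This pair was chosen after its values were seen. OGT over OGA was 1.83 (1.72 to 1.93) at 5 mM and 0.778 (0.746 to 0.811) at 25 mM in Huh7 cells. In PLC cells it was 3.51 (3.41 to 3.62) at 5 mM and 1.66 (1.58 to 1.75) at 25 mM. By FPKM OGT was thus above OGA in 3 libraries and below it in Huh7 cells at 25 mM. This order depends on the gene lengths used, and by reads OGT was above OGA there too (4540 against 4323). The fold between the glucose concentrations does not depend on the lengths. The fold between 25 and 5 mM was 0.426 (0.397 to 0.457) in Huh7 and 0.473 (0.446 to 0.502) in PLC cells, that is 2.35-fold and 2.11-fold lower. In Huh7 cells this came mostly with more OGA and in PLC cells mostly with less OGT, as the ratios of 1.89 for OGA and 0.377 for OGT show. With 1 added to each FPKM, or with the trends on GC content and length removed, the folds were 0.450 and 0.430 in Huh7 and 0.477 and 0.484 in PLC cells.

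**Figure D3:**
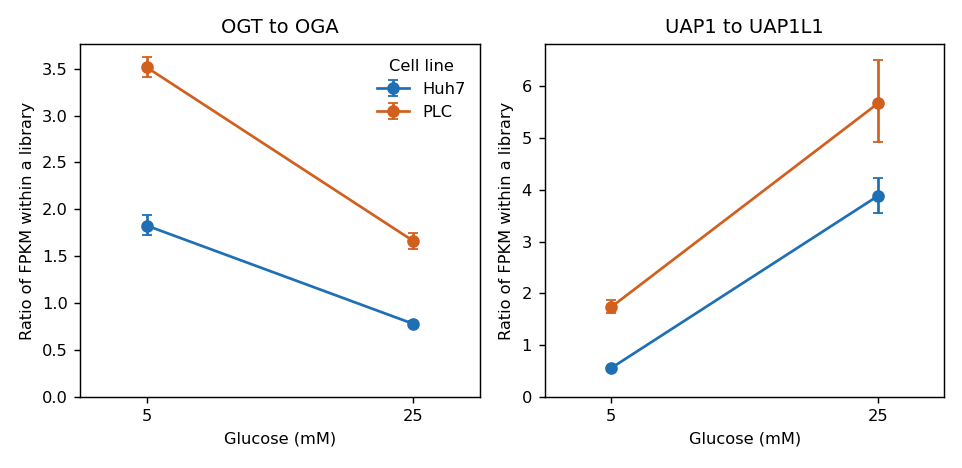
Ratio of the FPKM of OGT to OGA (left) and of UAP1 to UAP1L1 (right) within each library against glucose in mM, with 95% counting intervals, for Huh7 and PLC cells. OGT to OGA is lower at 25 mM in both lines, from 1.83 to 0.778 and from 3.51 to 1.66, and UAP1 to UAP1L1 is higher, from 0.557 to 3.88 and from 1.74 to 5.67.

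The lines themselves were compared over both glucose concentrations, with glucose as the block. Here the 2 concentrations stand in for replicates, since each line had 1 library per concentration, so the p-values do not rest on replicate cultures. Of the 8 genes 4 were called, all higher in PLC cells, where 42.9% of all genes were called by edgeR. OGT had a log2 fold change of PLC over Huh7 cells of 1.57 (SE 0.27) with an edgeR adjusted p of 0.000360. PGM3 followed with 1.12 (SE 0.23, edgeR adjusted p = 0.00164) and GNPNAT1 with 1.07 (SE 0.23, edgeR adjusted p = 0.00190). GFPT2 was called with an edgeR adjusted p of 0.00316, but from 0 and 6 reads in Huh7 and 41 and 32 in PLC cells. It passed the filter on low counts through the PLC libraries, where it is high, so its call adds no support of its own. The level of GFPT2 in PLC cells at 5 mM was 9.65-fold that of the 3 reads allowed in Huh7 cells, without the counting error of its 41 reads. The counting interval of the ratio of PLC to Huh7 cells ran from 7.499 upward. The calls of OGT, PGM3 and GNPNAT1 stood in each alternative fit. That of GFPT2 stood in each fit that tested it, and it was left out where at least 10 counts in every library were required.

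For GFPT1 the log2 difference between the lines was 0.59 (SE 0.24) with an edgeR adjusted p of 0.0674, and the gene was called without the filter on low counts (0.0477) and by limma-voom (0.0445). NAGK at 0.58 had an edgeR adjusted p of 0.0669 and OGA at 0.55 one of 0.147. UAP1 at -0.02 had an edgeR adjusted p of 0.951, and its PLC level over its Huh7 level was 0.982 (0.907 to 1.06) at 5 mM and 0.981 (0.905 to 1.06) at 25 mM. For some genes the distance between the lines differed between the 5 and 25 mM libraries by more than counting error. A dependence on glucose was not tested, since each line had 1 library per concentration. GFPT1 was 2.06 times (2.001 to 2.13) as high in PLC as in Huh7 cells at 5 mM but 1.09 times (1.05 to 1.13) at 25 mM, and OGA 2.24 times (2.13 to 2.38) and 0.945 times (0.897 to 0.995). OGT was 4.32 times (4.19 to 4.48) as high at 5 mM and 2.01 times (1.94 to 2.10) at 25 mM. Summed over the 8 genes, FPKM was 104 and 119 in Huh7 and 246 and 173 in PLC cells at 5 and 25 mM.

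The genes that break down amino sugars and return them to use formed a list of 8, among them GNPDA1, GNPDA2, AMDHD2, RENBP, NAGLU and CTBS. Their median log2 ratio was -0.54 in Huh7 and -0.33 in PLC cells, beside 0.037 and 0.11 over all genes. Of the 8 ratios 6 and 7 were below 1. In PLC cells the intervals of CTBS at 0.998, AMDHD2 at 0.860 and RENBP at 0.587 included 1, and RENBP was under the FPKM limit in both lines. GNPDA1, which turns glucosamine phosphate back into a fructose phosphate, opposite to GFPT1, was at 27.9 and 12.8 FPKM in Huh7 cells and at 53.5 and 34.4 FPKM in PLC cells. It passed the thresholds as lower in both lines, with ratios of 0.462 (0.432 to 0.491) and 0.644 (0.613 to 0.675). NAGLU, a lysosomal enzyme that frees GlcNAc from heparan sulfate, was at a ratio of 0.698 in Huh7 cells and passed as higher in PLC cells with 2.14 (1.94 to 2.39). In the edgeR fit 7 of the 8 log2 fold changes were below 0, 4 had an unadjusted p under 0.05 (1975 of 23217 over all genes) and 0 were called, with GNPDA1 at -0.96 (SE 0.22, edgeR adjusted p = 0.103). NAGK, which acts beside these genes, was thus not the only salvage gene with a ratio below 1 in both lines.

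Among 10 neighbours in sugar nucleotide metabolism UAP1L1, a paralog of UAP1, was lower at 25 mM in both lines. It was at 26.1 and 4.40 FPKM in Huh7 cells and at 8.22 and 2.96 FPKM in PLC cells, with ratios of 0.172 (0.155 to 0.184) and 0.367 (0.313 to 0.412). It was called in the shared test, with a log2 fold change of -2.11 (SE 0.29) and an edgeR adjusted p of 0.00638. It was the only 1 of the 10 called, beside 0.379% of all genes. The list was chosen with earlier results of these data known. Within a library UAP1 over UAP1L1 went from 0.557 to 3.88 in Huh7 cells and from 1.74 to 5.67 in PLC cells, a fold of 6.96 (6.22 to 7.79) and 3.26 (2.79 to 3.82). UAP1L1 was above UAP1 in Huh7 cells at 5 mM alone. Of the other 9 genes, GALK1, a galactose kinase, passed as higher in PLC cells at 1.65 (1.41 to 1.96), and UGP2, which makes UDP-glucose, had ratios of 1.07 and 0.888. The list median was 0.05 in Huh7 and 0.22 in PLC cells on the log2 scale.

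The genes that use UDP-GlcNAc for glycans and hyaluronan were a list of 13, of which 11 were over the FPKM limit in each line. MGAT4B, which adds a branch to N-glycans, passed in opposite directions, at 0.617 (0.592 to 0.641) in Huh7 and 1.88 (1.80 to 1.96) in PLC cells. MGAT4A, its relative, was at 1.01 in Huh7 cells and passed as higher in PLC cells with 1.79 (1.66 to 1.97), as did MGAT2 at 1.51 from 26 and 23 reads, with an interval of 0.910 to 3.04 that includes 1. EOGT, which places O-GlcNAc on proteins in the secretory path, had ratios of 1.31 (1.12 to 1.55) and 1.25 (1.18 to 1.33), past neither threshold. None of the 12 that were tested was called in the shared test, by edgeR or at an unadjusted p under 0.05. The list median was 0.004 in Huh7 and 0.33 in PLC cells on the log2 scale.

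Of the 5 genes of the sialic acid branch, which starts from UDP-GlcNAc, CMAS alone passed, as higher in PLC cells at 1.79 (1.65 to 1.94), and GNE, its entry enzyme, was at 1.01 and 1.22. The list median was 0.02 in Huh7 and 0.25 in PLC cells on the log2 scale. Of 6 partners of OGT (HCFC1, BAP1, TET1, TET2, TET3 and PROSER1) PROSER1 alone passed, as lower in PLC cells at 0.622 (0.556 to 0.683). HCFC1, a coregulator of transcription that OGT modifies and cleaves, was at 31.8 and 38.4 FPKM in Huh7 cells and at 21.99 and 17.9 FPKM in PLC cells, with ratios of 1.21 (1.17 to 1.25) and 0.815 (0.777 to 0.853). The list median was 0.21 in Huh7 and -0.22 in PLC cells on the log2 scale, beside 0.20 and -0.24 of the 8 genes, and no partner or sialic acid gene was called by edgeR in the shared test. One partner and no sialic acid gene had an unadjusted p under 0.05.

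**Figure D4:**
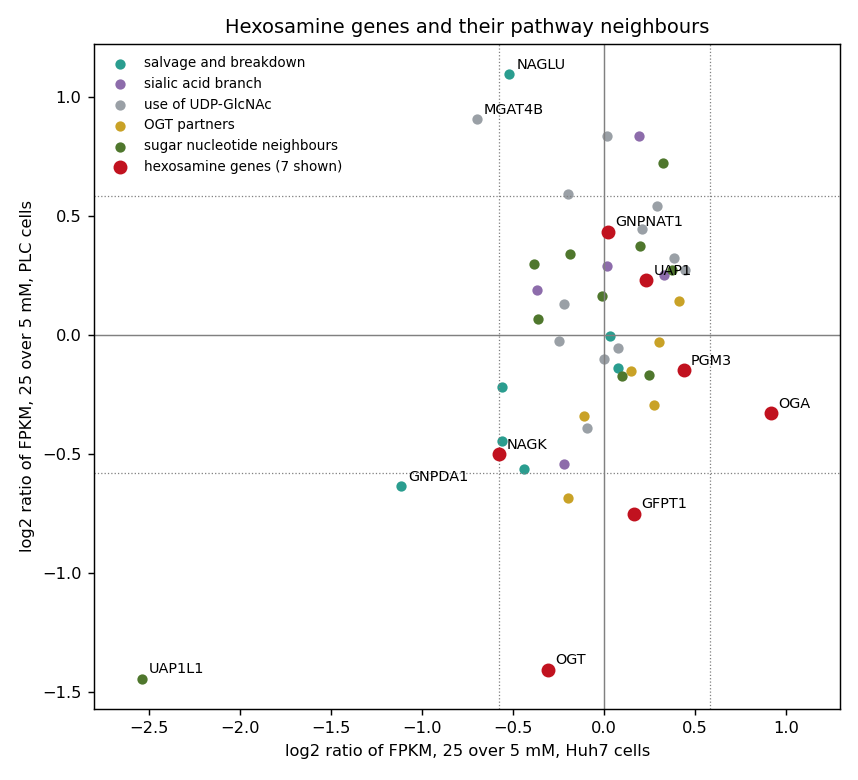
log2 ratio of FPKM at 25 to 5 mM in PLC cells against that in Huh7 cells, for 7 of the 8 genes and their neighbours with FPKM over 0.5 in at least 1 line; dotted lines mark ratios of 0.67 and 1.5. UAP1L1 and GNPDA1 lie low in both lines, and OGA, GFPT1 and PGM3 lie to the right of 0 in Huh7 cells and under 0 in PLC cells.

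The genes with the pattern nearest to GFPT1, OGT and OGA over the 4 libraries were taken from 9109 protein-coding genes with at least 100 reads in every library, by the distance of centred log2 FPKM. This is a description over 4 libraries. Nearest to GFPT1 were BBS10 (distance 0.022), SERPINF1 (0.071) and AGAP1 (0.071). For OGT they were MYOF (0.18), GATAD1 (0.19) and HES4 (0.25), and among those nearest to OGA were SPHK1 (0.22) and MED29 (0.28). OGT and OGA were 1.54 apart, which put OGA at place 2676 of the genes ranked by nearness to OGT and OGT at place 7048 of those ranked by nearness to OGA. Of the other members of the 8 genes, the nearest to GFPT1 was NAGK at 0.56 and place 1220.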

How the data were processed

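The authors sequenced total RNA of 2 cell lines at 5 and 25 mM, 1 library per condition. The deposited values are counts of reads per gene, not normalized. The submitters' processing notes name HISAT2, featureCounts and hg38, and versions, annotation release and use of strand are not given in the sources used here. Of 59657 lines 59652 were used, and 5 lines of a broken entry for ANK2 were left out. Counts by gene do not separate spliced from unspliced RNA or transcript forms.

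FPKM was calculated from the deposited count, the gene length and the library total. Ratios of 25 to 5 mM had 0.1 added to both FPKM values, and exact (Clopper-Pearson) 95% intervals of the ratios were taken from counts without it. Fold changes against a library with 0 reads were set against 3 reads. Counts were tested with edgeR 4.0.16 (filterByExpr, TMM, quasi-likelihood test, line and glucose as factors, 1 residual degree of freedom, Benjamini-Hochberg adjustment), and with DESeq2 1.42.0 and limma 3.58.1 as alternatives, in R 4.3.3. The code was tested on simulated data. Overlapping genes came from the exon positions in the count table, gene classes from GENCODE release 44 and promoter windows from RefSeq. Genes named are the 8, genes of the lists and the 3 nearest in pattern, and some of these are not reported here. The members and lists were chosen with earlier results of these data known.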

Additional observations from a re-analysis of the deposited data

Results flagged for a closer look

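In 3 of the 8 genes the libraries of the lines moved in opposite directions with glucose, each with a counting interval that leaves out 1. The share of all genes that did so is not given here, so the count is no result about the 8 genes. For PGM3 the PLC ratio of 0.902 ran from 0.823 to 0.984 over the alternatives. The ratio of 25 to 5 mM in Huh7 cells over that in PLC cells was 2.37 for OGA, 1.89 for GFPT1 and 1.501 for PGM3. These differences were not tested, since each line has 1 library per glucose concentration.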

How the results depend on the processing

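Under the alternatives the ratios of the 8 genes kept their direction except GNPNAT1 in Huh7 cells, and the fitted changes except PGM3 with glucose with no block (0.07 and -0.06 on the log2 scale, edgeR adjusted p = 0.99996), and neither was called. In Huh7 cells all 47 alternative values of the ratios lay within their counting intervals. In PLC cells 31 lay within and 17 outside, so the counting intervals there are narrower than the range over processing. The PLC ratio ran from 0.344 to 0.410 for OGT and from 0.542 to 0.642 for GFPT1. The number of genes past the thresholds in Huh7 cells was 1, and it was 2 with 0 added to FPKM, with TMM scaling, with DESeq2 size factors and with library totals without the 10 genes with the most reads, NAGK being the added gene, and 0 with ratios over 2 or under 0.5. In PLC cells it was 2, 3 with TMM scaling and with DESeq2 size factors, where NAGK passed too, and 1 with ratios over 2 or under 0.5. For the shared glucose change edgeR called 88 genes, 526 with no filter on low counts, 27 with at least 10 counts in every library and 0 with no block for the line (52 at an unadjusted p under 0.05), and DESeq2 called 197. The count among the 8 genes was 0, and 1 (OGT) with no filter. Between the lines 9969 genes were called, and 6340 with at least 10 counts in every library, which tests fewer genes. Apart from this the cause of these differences was not tested. The balance of OGT to OGA stayed within its counting interval under both alternatives, which were chosen after seeing the data.

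The labels give no replicate numbers, so libraries were paired by cell line alone, as the block of the shared test, and with 1 library per condition none was left out. GFPT2 was limited by depth, with 0 to 41 reads.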

Other observations

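A group of 5 transcription factors and readouts of stress that can act on hexosamine genes was listed as well. ATF4, a factor of the amino acid and stress response, was at 144 and 89.1 FPKM in Huh7 cells and at 213 and 119 FPKM in PLC cells at 5 and 25 mM. Its ratios were 0.618 (0.599 to 0.636) and 0.560 (0.543 to 0.576). DDIT3 and ASNS, which are known as targets of ATF4, passed the thresholds as lower in both lines as well, DDIT3 with 0.365 and 0.534 and ASNS with 0.161 and 0.302. Of the 5 genes only ASNS was called by edgeR in the shared test, with a log2 fold change of -2.47 (SE 0.38, edgeR adjusted p = 0.0158). Of all genes 0.379% were called, and the 5 were chosen with earlier results of these data known. XBP1, a factor of the unfolded protein response, was at 0.988 (0.968 to 1.01) in Huh7 and 0.686 (0.668 to 0.704) in PLC cells, and HSPA5, the main chaperone of the endoplasmic reticulum, was at 1.13 and 1.06. How these genes relate to the 8 genes was not tested.

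Reads of the 8 genes made up 0.0755% and 0.0847% of the counted reads in Huh7 and 0.196% and 0.122% in PLC cells at 5 and 25 mM.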
